A study of Mus musculus with 2 samples.

Results

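The Mir17 to Mir92 cluster is a run of 6 microRNA (miRNA) genes, Mir17, Mir18, Mir19a, Mir20a, Mir19b-1 and Mir92-1, that lie on 1 primary transcript, Mir17hg, on mouse chromosome 14. The members were taken as the rows of the deposited tables whose Ensembl gene identifier carries 1 of these 6 symbols in GENCODE M21. All 6 were found among the 1973 miRNA genes with a row. They were measured by small RNA sequencing of embryonic mouse forebrain in 2 libraries of 1 group, labelled biological replicates 1 and 2. Each library came from total RNA of healthy B6NCrl forebrain at embryonic day 16.5, pooled from embryos of both sexes and untreated as far as the labels say. The label of replicate 2 gives 41 embryos, and that of replicate 1 states a pool with no number. With 1 group there was no contrast between conditions.

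MicroRNAs are cut from hairpin precursors into short mature strands. Bases 2 to 8 of the mature strand, called the seed, do most of the pairing with target messages, so miRNAs that share a seed share many predicted targets. The Mir17 to Mir92 cluster is switched on by Myc, promotes proliferation and survival, and is best known as an oncogenic miRNA cluster of lymphomas. In the developing mouse cortex it is known to favour the expansion of neural progenitor cells. It has a pair of paralogous clusters, Mir106a to Mir363 on the X chromosome and Mir106b to Mir25 in an intron of Mcm7 on chromosome 5.

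The cluster spans 836 bases, from 115043671 to 115044506 on the plus strand of chromosome 14 (mm10, GRCm38). GENCODE M21 places all 6 hairpins inside exon 2 of the long non-coding RNA Mir17hg, which runs from 115042879 to 115046727. Mir17 (115043671 to 115043754) starts 792 bases into Mir17hg and is followed by Mir18 (115043851 to 115043946), Mir19a (115044000 to 115044081) and Mir20a (115044157 to 115044263). Mir19b-1 (115044305 to 115044391) and Mir92-1 (115044427 to 115044506) end the run. The gaps between neighbouring hairpins were 96 bases at most and 35 bases at least, and the hairpins were between 80 and 107 bases long.

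The mature strand usually taken as the main product of each member is printed here from RefSeq (GRCm38.p6) in genomic order, 5′ to 3′, with the seed in capitals, because the seeds sort the 6 genes into groups that do not follow their order on the transcript.
Mir17, miR-17-5p: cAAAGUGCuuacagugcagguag
Mir18, miR-18a-5p: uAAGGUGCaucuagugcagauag
Mir19a, miR-19a-3p: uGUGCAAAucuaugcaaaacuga
Mir20a, miR-20a-5p: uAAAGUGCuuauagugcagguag
Mir19b-1, miR-19b-3p: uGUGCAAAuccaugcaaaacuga
Mir92-1, miR-92a-3p: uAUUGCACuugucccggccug

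The 6 members held 4 seeds. Mir17 and Mir20a shared AAAGUGC, Mir19a and Mir19b-1 shared GUGCAAA, and Mir18 and Mir92-1 each had a seed of their own within the cluster. Outside their seeds the partners were nearly identical. With positions counted from 1 at the 5′ end and the base of the gene named first given first, miR-17-5p and miR-20a-5p differed by C1U and C12U, and miR-19a-3p and miR-19b-3p by U11C. The strand of Mir18 differed from that of Mir17 at 6 of 23 positions, of which A4G lies in the seed.

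The mature sequences also set which members can be measured by reads that fit 1 place. The main strands of Mir17, Mir18, Mir19a and Mir20a were each found at 1 locus among the transcripts of GENCODE M21, searched on both strands. Those of Mir19b-1 and Mir92-1 were each found at 2 loci, the second being Mir19b-2 and Mir92-2 of the X chromosome cluster. Reads with several mapping places stand in a row of their own in each table and not in the gene rows. The gene counts are therefore taken to hold uniquely placed reads, and the levels of Mir19b-1 and Mir92-1 are uncertain. The whole genome was not searched. The hairpins of these 4 genes are printed with the longest run of bases that the paired loci share in capitals (GRCm38.p6).
Mir19b-1, plus strand of chromosome 14, 115044305 to 115044391: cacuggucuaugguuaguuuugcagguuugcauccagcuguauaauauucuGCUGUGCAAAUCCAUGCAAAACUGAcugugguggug
Mir19b-2, minus strand of chromosome X, 52741983 to 52742066: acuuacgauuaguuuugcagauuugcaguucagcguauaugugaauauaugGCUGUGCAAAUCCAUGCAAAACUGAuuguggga
Mir92-1, plus strand of chromosome 14, 115044427 to 115044506: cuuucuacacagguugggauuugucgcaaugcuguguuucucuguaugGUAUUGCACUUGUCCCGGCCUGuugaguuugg
Mir92-2, minus strand of chromosome X, 52741838 to 52741928: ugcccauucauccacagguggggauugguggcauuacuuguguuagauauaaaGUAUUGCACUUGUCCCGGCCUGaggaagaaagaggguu

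The shared run was 25 bases long in the Mir19b pair and 22 bases long in the Mir92 pair. In both pairs it ended exactly where the mature strand ends, with 0 bases beyond it, so the loci already differ at the next base. The run began 2 bases before miR-19b-3p and 1 base before miR-92a-3p. The listed strands of the other arm, miR-19b-1-5p and miR-92a-1-5p, were each found at 1 locus. The deposited counts do not separate the arms of a hairpin or the lengths of reads, and which reads gave the counts of Mir19b-1 and Mir92-1 was not tested.

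The libraries held 5060112 gene-strand counts in replicate 1 and 4158686 in replicate 2. Reads mapping to several loci made up 40.5% and 43.3% of all reads of replicates 1 and 2. Of the 12 forebrain and neural marker genes, 11 had a row and all 11 were detected, with summed levels of 28119 CPM (counts per 1000000 gene-strand counts) in replicate 1 and 27799 CPM in replicate 2. Among them the neuronal Mir124a genes, whose copies share a mature strand, had mean levels of only 1.07 to 4.27 CPM, and Mir9-2 one of 3.62 CPM. Mir137 gave the largest part of the sums, at 13239 CPM in replicate 1 and 11457 CPM in replicate 2. Endothelial Mir126a stood at 16611 and 18999 CPM and the epithelial list summed to 1804 and 2508 CPM in replicates 1 and 2. The erythroid and myeloid lists, liver Mir122 and the muscle list each summed to between 18.8 and 306 CPM in a library. Mir142b of the myeloid list and 3 of the 4 muscle genes with a row, Mir1a-1, Mir133a-1 and Mir133a-2, were at 0 in both libraries. Mir142 and Mir1a-2 had no row and could not be measured. The 0 counts are taken to cover uniquely placed reads alone and do not show that these miRNAs were absent. Marker strands were not searched for second loci. In tissue pools, more cells of a type and more RNA per cell cannot be told apart.

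Together the 6 members held 4.41% of the gene-strand counts in replicate 1, or 223219 reads, and 4.21% in replicate 2, or 175118 reads (mean 4.31% ± 0.142, SD, n = 2). The exact Clopper-Pearson 95% intervals were 4.39% to 4.43% and 4.19% to 4.23%. Such intervals span the counting error alone, as the labels describe no molecular identifiers. No member had a read on the opposite strand in either library. Levels are given per gene without division by length, because the main strands were all 21 to 23 bases long. The lengths of the reads themselves were not measured. They compare reads, not molecules.

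Mir17, whose product represses the cell cycle inhibitor Cdkn1a and the pro-apoptotic Bcl2l11, was by far the most abundant member. It had 140503 counts or 27767 CPM in replicate 1 and 109284 counts or 26278 CPM in replicate 2, with a mean of 27023 CPM ± 1052 (SD, n = 2). It ranked 6 among all 1973 genes by mean level. This rank and those below are of gene counts, taken to hold uniquely placed reads alone. Gene-strand counts were 37.2% and 37.9% of all reads in replicates 1 and 2, fewer than the 40.5% and 43.3% that mapped to several loci. Genes whose strands fit several loci may therefore rank too low, and the ranks are not ranks of all miRNA reads. The genes nearest to it in level were Mir100 directly above, at 29804 CPM ± 2367, and Mir130a directly below, at 26397 CPM ± 410, both SD over the 2 libraries. The level of Mir17 lay below that of Mir100 in both libraries and above that of Mir130a in replicate 1 only.

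Mir20a, which shares the seed of Mir17 and represses many of the same messages, including that of the transcription factor E2f1, came next. It had 52509 counts or 10377 CPM in replicate 1 and 40759 counts or 9801 CPM in replicate 2, a mean of 10089 CPM ± 407 (SD, n = 2) and rank 22. Its neighbours in level were Mir106b of the paralogous chromosome 5 cluster at 10093 CPM ± 615 and Mir708 at 9060 CPM ± 99.5. The library ranges of Mir20a and Mir106b overlapped, so their order by mean level did not stand above the spread between libraries.

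Mir18, whose product represses the matrix gene Ctgf, had 19053 counts or 3765 CPM in replicate 1 and 14663 counts or 3526 CPM in replicate 2. Its mean was 3646 CPM ± 169 (SD, n = 2), at rank 47, between Mir21a at 3794 CPM ± 177 and Mir411 at 3573 CPM ± 745. Both of those ranges overlapped that of Mir18.

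Mir92-1, a source of miR-92a, which represses the integrin gene Itga5 in endothelial cells, had 10829 counts or 2140 CPM in replicate 1 and 10162 counts or 2444 CPM in replicate 2. Its mean was 2292 CPM ± 215 (SD, n = 2), at rank 67, between Mir301 at 2296 CPM ± 207 and Mir598 at 2175 CPM ± 623. It was 1 of 2 members, with Mir19b-1, whose CPM was higher in replicate 2.

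Mir19a and Mir19b-1, whose products are known as the main oncogenic component of the cluster in mouse B-cell lymphoma, had far fewer gene counts than their neighbours on the transcript. Reads of miR-19b-3p that fit both of its loci are taken to be outside the count of Mir19b-1, so its level is uncertain. Mir19a had 263 counts or 52.0 CPM in replicate 1 and 198 counts or 47.6 CPM in replicate 2, a mean of 49.8 CPM ± 3.09 (SD, n = 2) and rank 240. Mir19b-1 had 62 counts or 12.3 CPM in replicate 1 and 52 counts or 12.5 CPM in replicate 2, a mean of 12.4 CPM ± 0.178 and rank 293. The exact 95% intervals of Mir19b-1 were 9.39 to 15.7 CPM and 9.34 to 16.4 CPM, far wider than its gap between libraries. Mir19a lay between Mir150 at 50.4 CPM ± 2.24 and Mir6540 at 49.5 CPM ± 9.11, and Mir19b-1 between Mir218-1 at 12.4 CPM ± 2.58 and Mir1930 at 12.2 CPM ± 0.612.

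The order of the 6 levels was Mir17, Mir20a, Mir18, Mir92-1, Mir19a and Mir19b-1, and no neighbours in this order had library ranges that overlapped. The closest step was that from Mir18 to Mir92-1, with 1.76 times as many counts for Mir18 in replicate 1 and 1.44 times as many in replicate 2. The widest was from Mir92-1 to Mir19a, at 41.2 and 51.3 times in replicates 1 and 2. The order does not follow the place on the transcript: Mir17 had 534 and 552 times the counts of Mir19a, in the third place, but only 2.68 times those of Mir20a, in the fourth, in both libraries. For Mir92-1 and Mir19b-1 the order is taken to rest on uniquely placed reads alone, and reads that fit several loci were not measured per member.

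**Figure D1:**
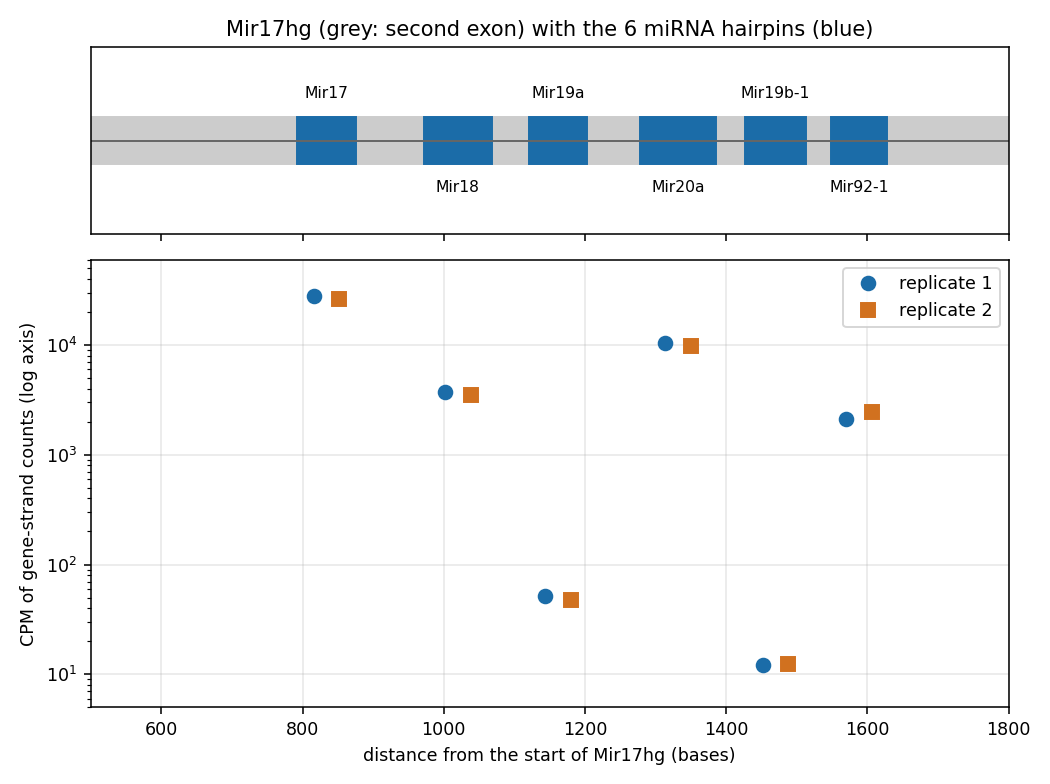
The upper panel maps the 6 hairpins (blue) on the second exon of Mir17hg (grey) by distance in bases from the start of Mir17hg. The lower panel gives the level of each member in CPM on a log axis at the same position, with a circle for replicate 1 and a square for replicate 2: Mir17 is highest at 27767 and 26278 CPM and Mir19b-1 lowest at 12.3 and 12.5 CPM, with Mir19a between Mir18 and Mir20a on the transcript at 52.0 and 47.6 CPM.

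A share of the cluster's own counts is taken within a library, so it does not depend on how the libraries are scaled. Mir17 took 62.9% in replicate 1 and 62.4% in replicate 2, Mir20a 23.5% and 23.3%, and Mir18 8.54% and 8.37%. Mir92-1 took 4.85% in replicate 1 and 5.80% in replicate 2. Mir19a took 0.118% and 0.113%, and Mir19b-1 0.0278% and 0.0297%, in replicates 1 and 2.

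Mir92-1 was the member whose share of the cluster moved most between the libraries relative to its size. Its exact 95% intervals were 4.76% to 4.94% in replicate 1 and 5.69% to 5.91% in replicate 2. Those of Mir17, 62.7% to 63.1% and 62.2% to 62.6%, did not overlap either, while those of Mir18, Mir19a, Mir20a and Mir19b-1 did. Among the 4 members whose main strand was found at 1 locus, Mir17 took 66.2% ± 0.0698, Mir20a 24.7% ± 0.00943, Mir18 8.93% ± 0.0577 and Mir19a 0.122% ± 0.00268 (SD, n = 2). In that set the intervals of the 2 libraries overlapped for all 4 members. The ratio of Mir17 to Mir20a was 2.68 in both libraries and that of Mir17 to Mir18 was 7.37 and 7.45, whereas that of Mir17 to Mir92-1 was 13.0 in replicate 1 and 10.8 in replicate 2.

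**Figure D2:**
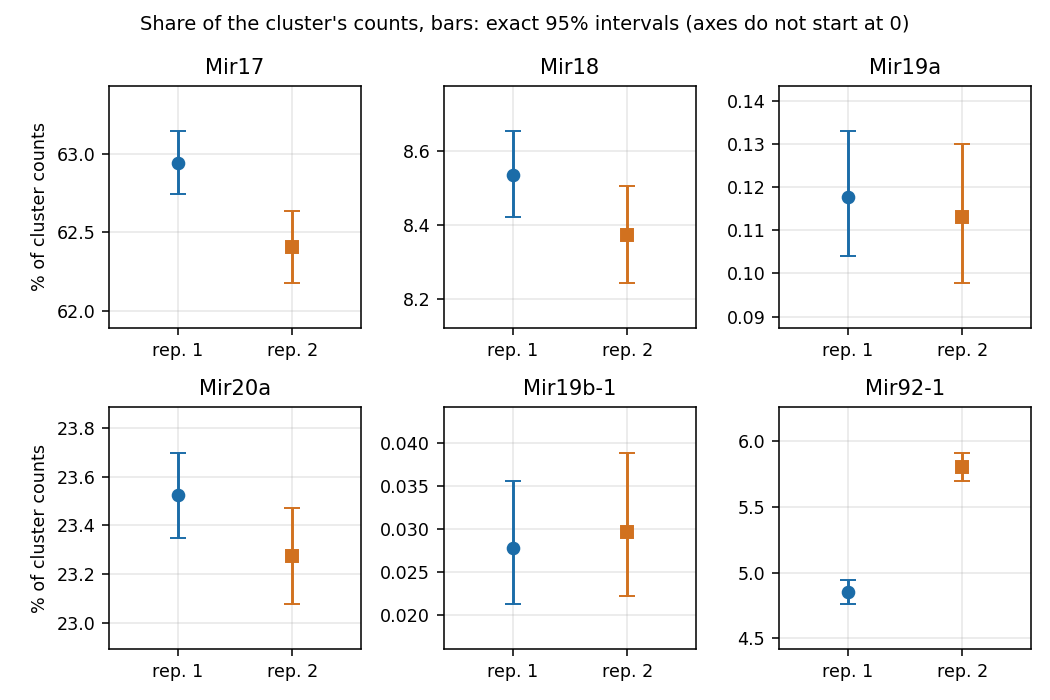
Each panel plots 1 member's percentage of the cluster's counts in replicate 1 (circle) and replicate 2 (square) with its exact 95% interval, on an axis that does not start at 0. The intervals of Mir92-1, around 4.85% and 5.80%, lie apart, as do those of Mir17, and the intervals of the other 4 members overlap.

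The libraries were also compared gene by gene with an exact binomial test of the 2 counts, with library totals scaled by TMM (the trimmed mean of log ratios) and p-values adjusted by the Benjamini-Hochberg method over the 466 genes whose counts summed to 10 or more. The test compares 2 libraries, not conditions, and allows for no spread between pools. It called 4 of the 6 members at an adjusted p under 0.05, where 45.3% of all genes tested were called. Such calls depend on counts, as the test calls smaller ratios where counts are higher. The 4 called members had 10162 to 140503 counts in a library, and the 2 not called had 52 to 263. The shares over all genes were not matched to the members by count, so no excess of called members can be read from them. All 4 were higher in replicate 2, a direction called for 23.4% of all genes, while 21.9% of all genes were called lower. The median log2 ratio of replicate 2 over replicate 1 was 0.06 for the members and 0.01 for all genes tested, and with unscaled totals -0.08 for the members and -0.14 for all.

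For Mir92-1 the log2 ratio was 0.34, at an adjusted p of 3.84e-62 (exact binomial test), and it was 0.19 with unscaled totals, at an adjusted p of 5.43e-21. Those of Mir17, Mir20a and Mir18 were 0.06, 0.06 and 0.05 with TMM, with adjusted p-values of 1.03e-27, 4.36e-10 and 0.00496 by the same exact test. With unscaled totals 14.4% of all genes tested were called higher and 33.3% lower in replicate 2, and the same 3 members were called lower, at -0.08, -0.08 and -0.09, since leaving out the scaling shifts every log2 ratio by -0.14. Among the 4 called members, the direction was the same under both scalings for Mir92-1 and changed for Mir17, Mir20a and Mir18. Neither Mir19a, at 0.02 and adjusted p = 0.995, nor Mir19b-1, at 0.18 and adjusted p = 0.717, was called by the exact test.

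**Figure D3:**
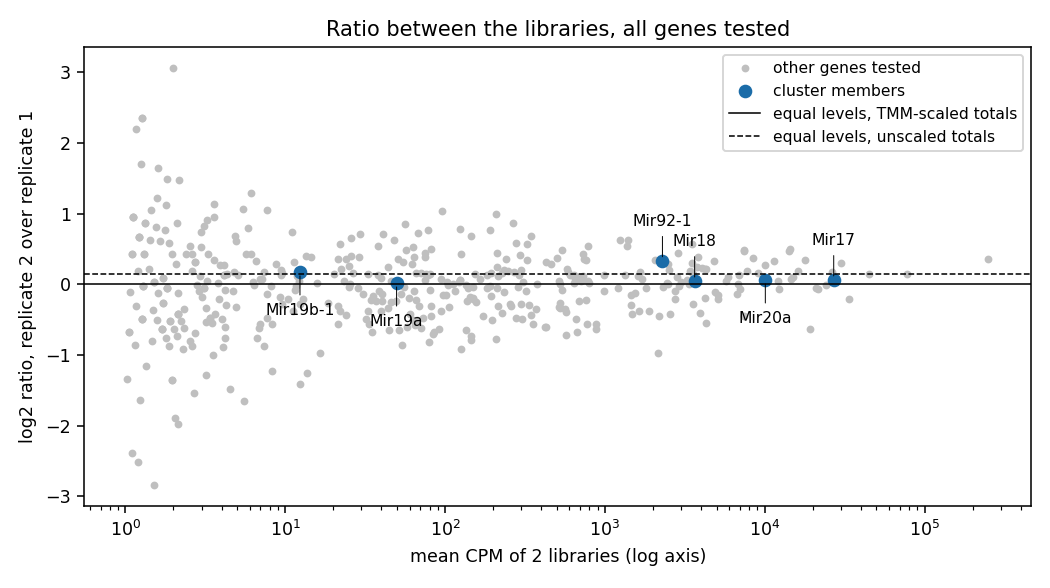
The log2 ratio of replicate 2 over replicate 1 with TMM scaling is plotted against mean CPM (log axis) for the 466 genes tested (grey) and the 6 members (blue). The solid line marks equal levels with TMM and the dashed line equal levels with unscaled totals. Mir17, Mir18, Mir19a and Mir20a lie between the lines. Mir92-1, at 0.34, and Mir19b-1, at 0.18 and not called, lie above both.

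The X chromosome cluster carries counterparts of 5 of the members at far lower counts. Its strands are printed with the bases that differ from the chromosome 14 member in capitals, because a read must span these bases to be told apart. Mir106a is set against Mir17, Mir20b against Mir20a and Mir18b against Mir18.
Mir106a, miR-106a-5p: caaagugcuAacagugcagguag
Mir20b, miR-20b-5p: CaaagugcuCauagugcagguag
Mir18b, miR-18b-5p: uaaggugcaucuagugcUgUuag

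The difference of miR-106a-5p from miR-17-5p was U10A, those of miR-20b-5p from miR-20a-5p were U1C and U10C, and those of miR-18b-5p from miR-18a-5p were A18U and A20U. None lay in the seed. Mir17 had 27767 and 26278 CPM in replicates 1 and 2, against 225 and 197 CPM for Mir106a, 123 and 134 times as many counts. Mir20a had 10377 and 9801 CPM, against 156 and 119 CPM for Mir20b, or 66.7 and 82.2 times as many. Mir18 had 3765 and 3526 CPM, against 26.9 and 23.6 CPM for Mir18b, or 140 and 149.6 times as many.

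For the genes with identical mature strands, the counts are taken to hold only reads that fit 1 of the 2 loci, and no level of the shared strand itself can be read from them. Mir92-1 had 2140 and 2444 CPM in replicates 1 and 2, against 68.6 and 81.3 CPM for Mir92-2, which is 31.2 and 30.1 times as many counts. Mir19b-1 had 62 and 52 counts, against 21 and 11 for Mir19b-2, a ratio of 2.95 with an exact 95% interval of 1.77 to 5.10 in replicate 1 and 4.73 with an interval of 2.44 to 10.05 in replicate 2. Mir363, which closes the X chromosome cluster and has no counterpart on chromosome 14, had 196 and 172 CPM.

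The chromosome 14 cluster as a whole held 65.3 and 70.8 times as many counts as the X chromosome cluster in replicates 1 and 2, at 4.31% ± 0.142 against 0.0636% ± 0.00571 of gene-strand counts (SD, n = 2). It held 1.73 and 1.62 times as many as the chromosome 5 cluster, which took 2.58% ± 0.0331. In both comparisons the chromosome 14 cluster was higher in 2 of 2 libraries. Since both clusters were counted in the same libraries, the values were paired by library, and the two-sided exact permutation test within pairs gave p = 0.5 in each. That is the smallest p that 2 pairs allow, so these differences could not reach a threshold of 0.05.

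**Figure D4:**
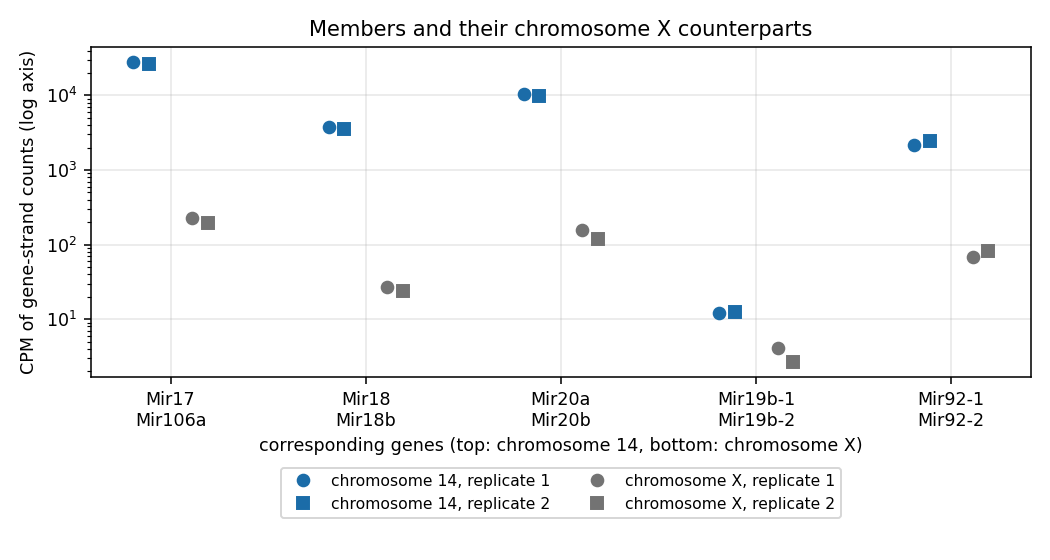
Levels in CPM on a log axis are shown for 5 members (blue) and their X chromosome counterparts (grey), with circles for replicate 1 and squares for replicate 2. The members lie above their counterparts in both libraries, by 123 and 134 times for Mir17 and by 2.95 and 4.73 times for Mir19b-1.

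Seeds tie the members to genes elsewhere in the genome. Of the miRNA genes with a mature strand in the RefSeq table, 13 outside the cluster share a seed with a main strand of a member, and all 13 had a row. Of these, 8 exceeded a mean of 100 CPM, 3 had lower counts and 2, Mir367 and Mir6383, were at 0 in both libraries. For uniquely placed reads, 0 counts leave room for up to 0.593 CPM in replicate 1 and 0.721 CPM in replicate 2.

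Genes with the seed of Mir17 and Mir20a summed to 63416 CPM in replicate 1 and 61771 CPM in replicate 2. The cluster gave 60.1% of these counts in replicate 1 and 58.4% in replicate 2. Nearly all the remainder came from chromosome 5, where Mir93 had a mean of 15041 CPM ± 272 and Mir106b one of 10093 CPM ± 615 (SD, n = 2). Mir106a at 211 CPM ± 19.9 and Mir20b at 137 CPM ± 25.6 added 0.556% on average. Mir17 alone had 1.82 and 1.77 times as many counts as Mir93 in replicates 1 and 2, although their strands differ only by U10G, A11U, C12U and A13C, just past the seed.

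Of the counts of genes with the seed of Mir18, 99.3% came from the cluster in both libraries, with Mir18b as the only other gene. The shares given for each seed are of gene counts, which do not separate the arms of a hairpin. Genes with the seed of Mir19a and Mir19b-1 had 346 and 261 counts in all in replicates 1 and 2, of which the cluster gave 93.9% and 95.8%. The exact 95% intervals of those shares were 90.9% to 96.2% and 92.6% to 97.9%. Of the 325 and 250 counts from the cluster, 263 and 198 were of Mir19a. Reads of miR-19b-3p that fit both of its loci are taken to be in no gene's count. Their number was not measured, so these shares are uncertain beyond the intervals.

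For the seed of Mir92-1, most of the gene counts lay outside the cluster. Reads of miR-92a-3p that fit both of its loci are taken to be in no gene's count, and their number was not measured, so these shares and the order within the group are uncertain. Mir92-1 gave 29.9% of the 7168 CPM in replicate 1 and 31.7% of the 7717 CPM in replicate 2. The largest part of the gene counts came from Mir92b, a miRNA of neural progenitors on chromosome 3, at 3911 and 4140 CPM in replicates 1 and 2. Mir25 had 656 CPM ± 11.5, Mir32 210.3 CPM ± 31.1, Mir363 184 CPM ± 17.1 and Mir92-2 74.9 CPM ± 8.98 (SD, n = 2). Mir32 lay above Mir363 in replicate 2, at 232 against 172 CPM, but below it in replicate 1, at 188 against 196 CPM. The strands of the 3 relatives highest in mean level are printed with the bases that differ from miR-92a-3p in capitals. They show that 2 of the 3 differ from it at few positions. An extra last base of each is not compared.
Mir92b, miR-92b-3p: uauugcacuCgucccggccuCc
Mir25, miR-25-3p: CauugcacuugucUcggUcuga
Mir32, miR-32-5p: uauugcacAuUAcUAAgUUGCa

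MiR-92b-3p differed from miR-92a-3p by U10C and G21C, miR-25-3p by U1C, C14U and C18U, and miR-32-5p at 10 of 21 positions. In the comparison of the libraries, 5 of the 6 tested genes with this seed were called higher in replicate 2 with TMM, against 23.4% of all genes, and 0 were called lower, against 21.9%. Their log2 ratios by the exact binomial test were 0.34 for Mir92-1, 0.39 for Mir92-2, 0.23 for Mir92b, 0.45 for Mir32 and 0.11 for Mir25, with adjusted p-values of 0.00941 or less. Mir363 had -0.05 and was not called. The median log2 ratio of the 6 genes was 0.28, against 0.01 for all genes tested, and with unscaled totals it was 0.14, against -0.14. These genes were grouped with results of the data known, and neighbours of 1 cluster are not independent. With unscaled totals 3 of the 6, Mir92-1, Mir92b and Mir32, were called higher, against 14.4% of all genes, and Mir363 was called lower, against 33.3%. Of the 6 tested genes with the seed of Mir17 and Mir20a, 4 were called higher and 1, Mir20b, lower with TMM, against 23.4% and 21.9% of all genes. With unscaled totals 1, Mir106b, was called higher and 5 lower, against 14.4% and 33.3% of all genes. For both seeds, the shares over all genes were not matched by count, on which calls depend.

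**Figure D5:**
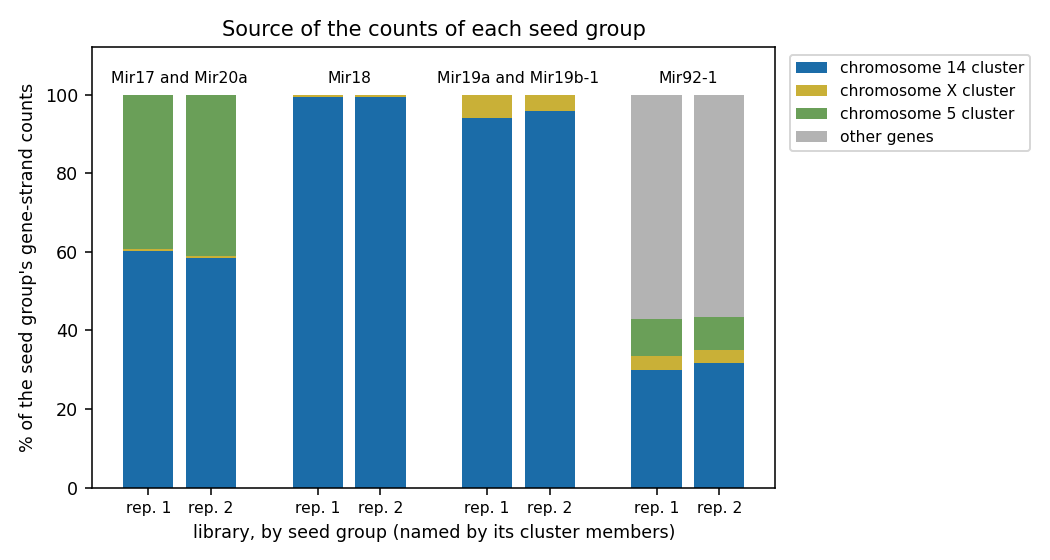
Stacked bars give, for each library, the percentage of the gene-strand counts of each seed group that came from the chromosome 14 cluster (blue), the X chromosome cluster (yellow), the chromosome 5 cluster (green) and other genes (grey). The cluster gives near 60% for the seed of Mir17 and Mir20a, over 93% for those of Mir18 and of Mir19a and Mir19b-1, and 29.9% and 31.7% for that of Mir92-1. Reads that fit both loci of miR-19b-3p or of miR-92a-3p are taken to be in none of the bars.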

How the data were processed

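MicroRNA sequencing counts of 2 forebrain libraries at embryonic day 16.5 were used. Per the deposited file descriptions, the authors used the mm10 assembly and GENCODE release M4. Which aligner and counter they used, and how adapters were trimmed, is not given in the sources used here. Each deposited table holds raw counts per gene in 3 columns (without strand, and for each strand) and 4 rows of unassigned reads, which held 62.1% of reads in replicate 1 and 61.4% in replicate 2 and were kept out of totals and tests. Column 3 was used as the gene-strand count.

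Names, positions and the host gene came from GENCODE M21 by gene identifier (1894 of 1973 matched), and sequences from RefSeq GRCm38.p6 (927 symbols matched, all 6 members). Mature strands were matched exactly to 141767 GENCODE M21 transcripts.

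Levels are counts per 1000000 gene-strand counts, as mean ± SD over 2 libraries. Genes whose 2 counts summed to 10 or more were compared between libraries by a two-sided exact binomial test (scipy 1.17.1), scaled by TMM (edgeR 4.0.16, R 4.3.3), with Benjamini-Hochberg adjustment at 0.05. Log2 ratios add 0.5 to each count. A quasi-likelihood test was not run, since the series has 1 group. A count of 0 allows up to 3 counts. The alternatives were unscaled totals, DESeq2 1.42.0 size factors, no count minimum, unstranded counts, 1 added to each count, all reads as the total, and each library left out. The genes named are the 6 members, the paralogous clusters, genes that share a seed with a member, and the genes directly above and below each member in mean level. Members and lists were chosen with earlier results of these data known. The p-values measure counting noise between 2 libraries.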

Additional observations from a re-analysis of the deposited data

How the results depend on the processing

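The count of called members was 4 under every scaling, filter and strand choice tried. The number of all genes called ranged from 207 to 225, around 211 of 466 tested (45.3%) in the main setting. These numbers do not share 1 denominator. The 207 came from dropping the count minimum, which widened the test to 703 genes, so the share called was lower there than in the main setting. With unscaled totals the log2 ratios of Mir17, Mir18, Mir19a and Mir20a reversed, to -0.0795, -0.0948, -0.126 and -0.0824, because that choice shifts every ratio by -0.14. Per 1000000 of all reads, unassigned reads included, the levels were 10147 for Mir17, 1369 for Mir18, 18.7 for Mir19a, 3788 for Mir20a, 4.65 for Mir19b-1 and 861 for Mir92-1, and the cluster share was 1.62%, since the total is larger. With unstranded counts Mir19b-1 was at 12.2 CPM, and its level is the 1 of 6 that moved by more than its SD. Over the 4 members found at 1 locus, the shares of Mir17, Mir18, Mir19a and Mir20a were 66.2%, 8.93%, 0.122% and 24.7%, since fewer genes share the total. In all other alternatives run, including DESeq2 size factors and 1 added to each count, the members' values kept their direction and call.

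With each library left out in turn, the levels ranged from 26278 to 27767 CPM for Mir17, 3526 to 3765 for Mir18, 47.6 to 52.0 for Mir19a, 9801 to 10377 for Mir20a, 12.3 to 12.5 for Mir19b-1 and 2140 to 2444 for Mir92-1. The cluster share ranged from 4.21% to 4.41%. No paired comparison of groups was possible, because the series holds 1 group and so no groups that share replicate numbers. Values of different clusters were paired by library, as given above. With 52 to 263 counts per library, Mir19a and Mir19b-1 are the members whose precision depth limits most.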
